A study of Mus musculus with 10 samples.

Results

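A list of 10 genes of neutrophil granules and chemotaxis, chosen by name, was followed in bulk RNA-seq of tumor-draining lymph nodes (TDLNs): S100a8, S100a9, Ngp, Camp, Ltf, Lcn2, Retnlg, Mmp8, Mmp9 and Cxcr2. All 10 were found among the 33585 genes of the deposited tables after Ensembl identifiers were matched to mouse symbols, each under 1 identifier. The nodes came from wild-type female BALB/c mice, given as 6 weeks of age in the methods, that carried 4T1 tumors, a transplantable mammary carcinoma of the same strain. In every mouse the primary tumor was treated by microwave ablation (MWA) on day 10, and the TDLNs were taken on day 15. The MWA group (5 libraries) received PBS, and the MWA+2DG group (5 libraries) received 2-deoxy-D-glucose (2DG), an inhibitor of glycolysis, at 500 mg/kg into the peritoneum every 2 days from the day of ablation. Both groups carried a tumor and an ablation, and nodes of untreated or healthy mice were not analysed here. The comparison asks how the node after ablation differs when glycolysis is inhibited as well. Levels are FPKM, fragments divided by transcript length in kilobases and scaled to 1000000 mapped reads, so that levels of different genes are compared per length.

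Neutrophils are short-lived granulocytes that mature in the bone marrow and fill their granules in order, first the azurophil granules (myeloperoxidase, elastase), then the specific granules (lactoferrin, cathelicidin, neutrophilic granule protein) and last the gelatinase granules (Mmp9). Transcripts for the azurophil and specific granule proteins are made mainly in the marrow precursors, whereas S100a8 and S100a9, the subunits of calprotectin, stay abundant in mature cells and are also made by monocytes. Cxcr2 is the receptor that draws neutrophils out of the marrow and along gradients of CXC chemokines, and tumors such as 4T1 are known for expanding circulating granulocytes.

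The node identity was seen in all 10 libraries, with summed levels of 5 T cell genes of 249 to 403 FPKM and of 5 B cell genes of 1110 to 1460 FPKM. A second division ran across the groups: transcripts of hepatocytes such as Alb lay between 0 and 0.0486 FPKM in replicates 1 and 2 of both groups and between 35.1 and 102 FPKM in replicates 3 to 5. Values within these replicate sets are given beside the main results. MWA+2DG replicate 5 stood apart by its summed adipocyte genes (85.7 FPKM, other libraries 4.51 to 48.2) and by the monocyte gene Ly6c2 (99.5 FPKM, others 8.46 to 44.3). The depth of the libraries is unknown, since FPKM carry no counts.

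Neutrophil transcripts were scarce in these nodes, and of the members S100a8 and S100a9 differed between the groups by the rule of the study. For both of these calprotectin genes, 4 of 5 MWA+2DG libraries lay below every MWA library. The share of all genes with this pattern was not computed, and the lysozyme gene Lyz2 showed it too. It cannot be called particular to the 2 genes. Ngp and Camp were high in a single MWA library and close to 0 elsewhere, whereas Ltf, Lcn2, Retnlg, Mmp8, Mmp9 and Cxcr2 overlapped widely. By the rule of the study's methods (unadjusted limma P below 0.05 and a log fold change beyond 0.25, read here as log2), 2 members were lower and 0 were higher. By that rule 1.87% of all 13334 tested genes were lower and 0.952% higher. Of all tested genes 0 (0.0%) passed a Benjamini-Hochberg adjusted p of 0.05 in limma. At an unadjusted P below 0.05 limma gave 567 genes (4.25%), and the Wilcoxon rank-sum test gave 416 at that level and 0 after adjustment. The groups did not separate completely for any of the 10 members (0 of 10), as they did for 0.802% of tested genes and 0.587% of all genes above 0. In bulk tissue, fewer neutrophils, less of these transcripts per cell and a change in other cells that make some of them cannot be told apart.

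**Figure D1:**
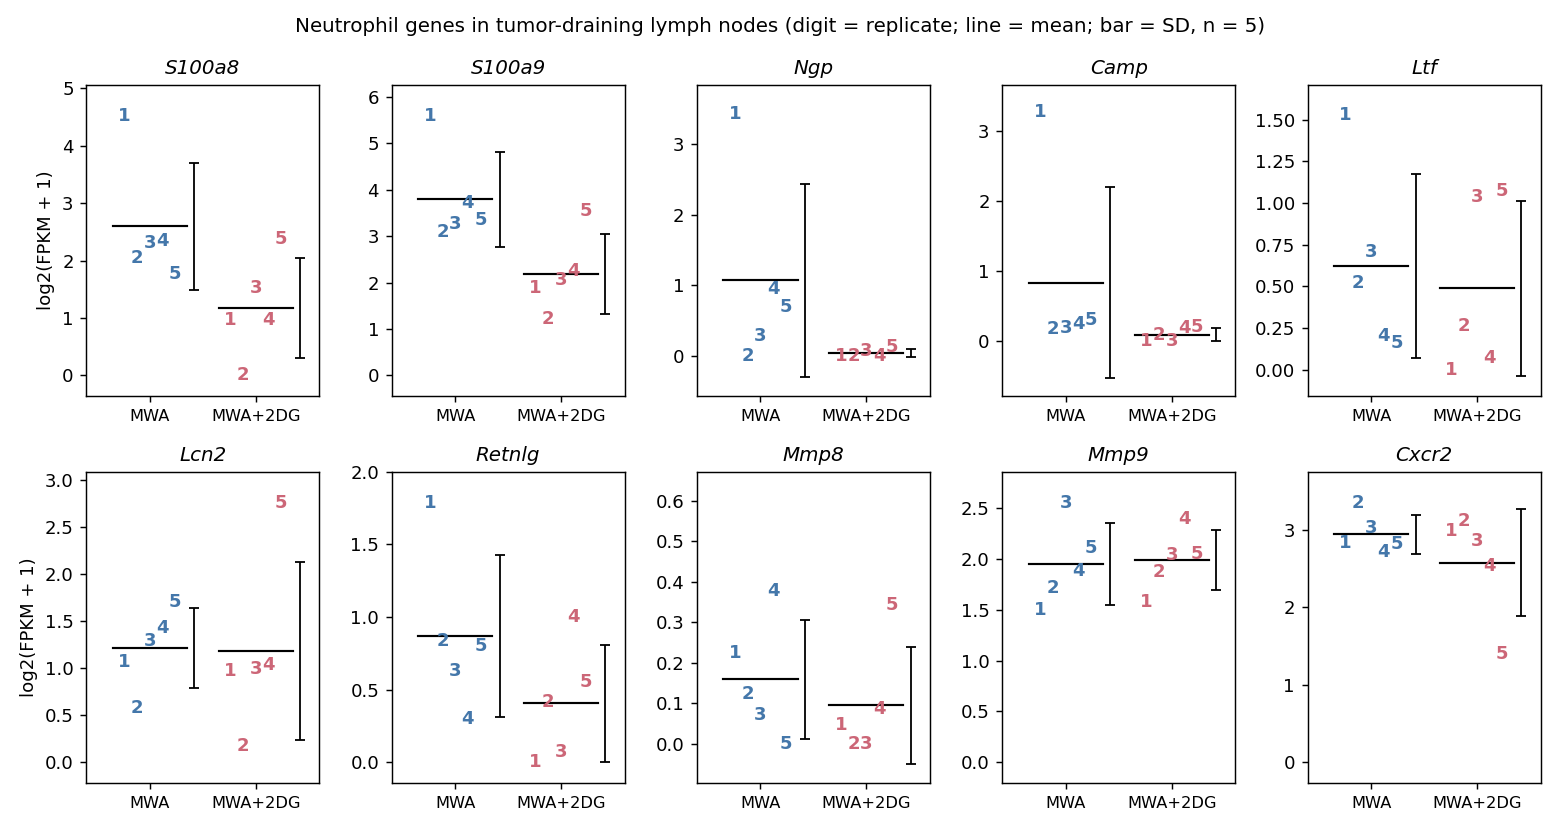
Level of each of the 10 genes on the log2(FPKM + 1) scale, 1 digit per library (the replicate number), MWA in blue and MWA+2DG in red, with the group mean (line) and SD (bar, n = 5); each panel has its own axis. MWA 1 sits far above all other libraries for S100a8, S100a9, Ngp and Camp, and MWA+2DG 5 is the highest for Lcn2 and the lowest for Cxcr2.

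By median level in the MWA group, S100a9 came first (9.17 FPKM), followed by Cxcr2 (6.12), S100a8 (3.96), Mmp9 (2.69), Lcn2 (1.44), Retnlg (0.739), Ngp (0.622), Ltf (0.435), Camp (0.19) and Mmp8 (0.0894). In the MWA+2DG group the first place was taken by Cxcr2 (6.24 FPKM), with S100a9 (3.14) and Mmp9 (3.1) next, and S100a8 (0.962) stood level with Lcn2 (0.98). Neighbours in these orders overlapped in range, so their places were not separated beyond the spread between libraries. The 4 members Camp, Ltf, Retnlg and Mmp8 had a mean under 1 FPKM over the 10 libraries and were given as values without the limma test, and Ngp reached that mean only through MWA 1.

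S100a8 and S100a9 encode the calcium-binding subunits that pair as calprotectin, which makes up a large share of neutrophil cytosolic protein and binds zinc and manganese. In the MWA libraries 1 to 5, S100a8 measured 21.9, 3.13, 3.96, 4.05 and 2.4 FPKM. In the MWA+2DG libraries 1 to 5 it measured 0.962, 0, 1.89, 0.956 and 4.19 FPKM. MWA 1 was the highest library by far, and the groups overlapped only through MWA+2DG 5, the other 4 MWA+2DG libraries lying below every MWA library. The means were 7.08 ± 8.29 and 1.6 ± 1.59 FPKM (SD, n = 5 each), and the log2 fold change was -1.43 ± 0.542 (SE; 95% interval -2.62 to -0.23). The unadjusted limma P was 0.0237 and the adjusted p 0.995, and a two-sided exact permutation test of this gene alone gave p = 0.0476.

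S100a9 gave the same picture at a higher level. It measured 46.9, 7.52, 8.57, 12 and 9.17 FPKM in MWA 1 to 5 and 2.67, 1.31, 3.14, 3.74 and 10.7 FPKM in MWA+2DG 1 to 5. Again 4 of 5 MWA+2DG libraries lay below the lowest MWA library, and MWA+2DG 5 lay within the MWA range. The means were 16.8 ± 16.9 and 4.31 ± 3.68 FPKM (SD, n = 5 each), and the log2 fold change was -1.61 ± 0.516 (SE; 95% interval -2.75 to -0.472). The unadjusted limma P was 0.00992 with an adjusted p of 0.995, and the exact permutation p was 0.0317, where 5 against 5 libraries can reach 0.00794.

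Single libraries set much of the size of this difference. MWA 1 held 61.8% of the summed S100a8 and 55.7% of the summed S100a9 of its group. Without it the log2 fold changes were -0.95 and -1.16, with exact permutation p of 0.0952 and 0.0635 and unadjusted limma P of 0.0361 and 0.0126. Without MWA+2DG 5, the library through which they overlapped, the groups separated for both genes by construction. The log2 fold changes were then -1.73 and -1.95. The exact permutation p of 0.0159 for each is the value that any complete separation gives in this test. Of the 13348 genes tested there 1.84% separated in either direction, 86 of them in the lower direction. With both libraries left out, a choice made after seeing the data, the log2 fold changes were -1.25 and -1.51 and the groups did not overlap (exact permutation p = 0.0286 each, the smallest that 4 against 4 allow), a separation shown by 4.16% of the genes tested there and, in the lower direction, by 1.69%. MWA then averaged 3.38 ± 0.776 and MWA+2DG 0.951 ± 0.771 FPKM for S100a8 (SD, n = 4 each), against 9.32 ± 1.93 and 2.72 ± 1.03 FPKM for S100a9.

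Within the replicate sets both genes were lower in MWA+2DG, but by unequal amounts. In replicates 1 and 2 the log2 difference was -2.79 for each gene, and in replicates 3 to 5 it was -0.51 for S100a8 and -0.82 for S100a9. Regrouping only within these sets gave exact permutation p of 0.0667 and 0.05. In replicates 3 to 5 alone neither gene passed limma (unadjusted P of 0.183 and 0.0646, adjusted p of 0.999 each). Without MWA+2DG 2, where S100a8 was listed at 0, S100a8 did not pass limma either (log2 fold change -1.13, unadjusted P = 0.0598). The ratio of S100a9 to S100a8 lay between 1.66 and 3.91 in the 9 libraries with both, with no separation of the groups.

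**Figure D2:**
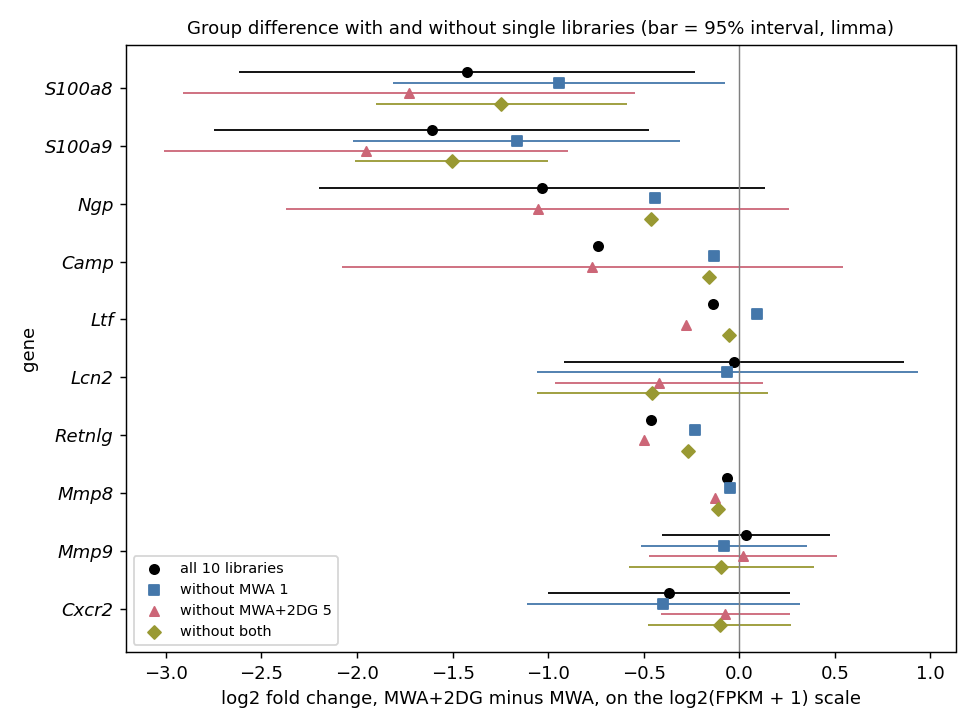
Log2 fold change of each gene (MWA+2DG minus MWA on the log2(FPKM + 1) scale) with all 10 libraries and without MWA 1, without MWA+2DG 5 or without both; bars are 95% limma intervals, and points without a bar are genes under the filter of 1 FPKM in that fit. S100a8 and S100a9 stay below 0 in all 4 fits, while without MWA 1 Ngp moves from -1.03 to -0.44 and Camp from -0.74 to -0.13.

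Ngp, Camp and Ltf encode proteins of the specific granules: neutrophilic granule protein, the cathelicidin antimicrobial peptide and the iron-binding lactoferrin. Ngp measured 9.76, 0, 0.215, 0.922 and 0.622 FPKM in MWA 1 to 5 and was listed at 0 in MWA+2DG 1, 2 and 4, with 0.045 and 0.0882 FPKM in MWA+2DG 3 and 5. Camp measured 8.64 FPKM in MWA 1 and 0.129, 0.142, 0.19 and 0.232 FPKM in MWA 2 to 5, against 0, 0.0634, 0, 0.14 and 0.151 FPKM in MWA+2DG 1 to 5. For both genes MWA 1 was alone at its level, 10.6 times the next library for Ngp and 37.2 times for Camp. The remaining libraries of the groups overlapped, for Ngp only through MWA 2.

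The log2 fold change of Ngp was -1.03 ± 0.529 (SE; 95% interval -2.2 to 0.135), which did not pass limma (unadjusted P = 0.0776), with an exact permutation p of 0.0476. MWA 1 held 84.7% of the group's Ngp and 92.6% of its Camp. Without that library the log2 differences went from -1.03 to -0.44 for Ngp (exact permutation p = 0.0952) and from -0.74 to -0.13 for Camp (exact permutation p from 0.0397 to 0.0794). A smaller pseudocount of 0.1 gave -2.61 for Ngp and -1.78 for Camp, so the size of both depended on the pseudocount. Ngp, in the test only through MWA 1, had an unadjusted limma P of 0.0229 there and of 0.042 after rescaling each library to 1000000. In replicates 1 and 2, which include MWA 1, the log2 difference was -1.714 for Ngp and -1.678 for Camp, against -0.578 and -0.118 in replicates 3 to 5. Ltf measured 1.88, 0.435, 0.631, 0.149 and 0.119 FPKM in MWA against 0, 0.2, 1.05, 0.0493 and 1.1 FPKM in MWA+2DG. Its difference of -0.14 (exact permutation p = 0.683) turned to 0.09 without MWA 1, and it was -0.891 in replicates 1 and 2 and 0.369 in replicates 3 to 5.

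The promoters of the 4 genes that stood apart in MWA 1 are shown because S100a8, S100a9, Ngp and Camp were high in the same library and because granule genes are known targets of C/EBP factors and PU.1. Each line gives the 250 bases before the RefSeq transcription start (GRCm38.p6), read 5′ to 3′ on the gene's strand. The deposited values were made on another build, and only names were matched between them. Capitals mark matches to the core of C/EBP sites, TTNNGNAA, and to the core of PU.1 sites, GAGGAA. Both were searched on both strands, so a PU.1 core on the opposite strand reads as its reverse complement, and no match overlapped another in these 4 sequences. S100a8 lies at chr3:90668821-90669070 on the plus strand, S100a9 at chr3:90695722-90695971 on the minus strand, Ngp at chr9:110419558-110419807 on the plus strand and Camp at chr9:109849457-109849706 on the minus strand.
S100a8: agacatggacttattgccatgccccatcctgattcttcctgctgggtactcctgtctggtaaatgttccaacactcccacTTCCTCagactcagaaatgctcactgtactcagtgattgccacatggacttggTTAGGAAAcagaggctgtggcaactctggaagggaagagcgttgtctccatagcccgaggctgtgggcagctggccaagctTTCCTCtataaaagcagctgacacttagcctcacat
S100a9: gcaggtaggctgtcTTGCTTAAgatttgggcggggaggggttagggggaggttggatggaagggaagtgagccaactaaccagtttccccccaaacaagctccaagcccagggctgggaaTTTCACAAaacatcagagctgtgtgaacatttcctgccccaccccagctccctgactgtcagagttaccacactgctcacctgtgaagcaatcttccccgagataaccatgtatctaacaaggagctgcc
Ngp: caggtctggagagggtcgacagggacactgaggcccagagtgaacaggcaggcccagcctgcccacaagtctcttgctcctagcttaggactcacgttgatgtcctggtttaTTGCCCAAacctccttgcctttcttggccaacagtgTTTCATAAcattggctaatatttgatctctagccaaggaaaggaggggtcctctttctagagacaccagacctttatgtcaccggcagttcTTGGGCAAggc
Camp: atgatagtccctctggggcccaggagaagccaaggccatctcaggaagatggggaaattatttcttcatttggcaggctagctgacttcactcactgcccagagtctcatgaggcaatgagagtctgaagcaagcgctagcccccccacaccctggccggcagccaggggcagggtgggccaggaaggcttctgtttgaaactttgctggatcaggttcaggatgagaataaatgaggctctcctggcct

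The S100a8 window held 1 C/EBP core and 2 PU.1 cores, that of S100a9 held 2 C/EBP cores and that of Ngp 3, whereas the Camp window held neither set of letters. Over the 9 members with an entry in the RefSeq promoter set, the C/EBP core was found in 7, the PU.1 core in 5 and both in 4. Among all 32851 promoters of that set the shares were 36.8%, 23.3% and 8.87%. A match is a description of letters, and the files hold no binding data. The starts of S100a8 and S100a9 lie 27 kb apart on chromosome 3, and Ngp lies 570 kb from Camp and 599 kb from Ltf on chromosome 9.

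Lcn2 and Retnlg, the genes of lipocalin 2, which captures bacterial siderophores, and of the resistin-like protein gamma, did not differ beyond the spread between libraries. Lcn2 measured 1.09, 0.486, 1.44, 1.69 and 2.25 FPKM in MWA and 0.962, 0.129, 0.98, 1.04 and 5.74 FPKM in MWA+2DG. Its highest library was MWA+2DG 5, which held 64.8% of the group's sum, and MWA 1 ranked near the middle. The log2 fold change was -0.03 (95% interval -0.915 to 0.863, exact permutation p = 0.96), and without MWA+2DG 5 it was -0.42 (exact permutation p = 0.206). Retnlg measured 2.45, 0.787, 0.542, 0.228 and 0.739 FPKM in MWA against 0, 0.33, 0.0499, 1 and 0.467 FPKM in MWA+2DG, a difference of -0.46 (exact permutation p = 0.167), or -0.23 without MWA 1 (exact permutation p = 0.333). The log2 difference of Retnlg was -1.105 in replicates 1 and 2 and -0.032 in replicates 3 to 5, and that of Lcn2 was -0.243 and 0.119. The Lcn2 range in replicates 1 and 2, 0.129 to 1.09 FPKM, lay mostly below that in replicates 3 to 5, 0.98 to 5.74 FPKM.

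Of the granule metalloproteinases, Mmp8 (neutrophil collagenase) was almost undetected and Mmp9 (gelatinase B) was present throughout. Mmp8 did not exceed 0.298 FPKM in any library and was listed at 0 in MWA 5 and in MWA+2DG 2 and 3, with a log2 difference of -0.06 (exact permutation p = 0.492). Mmp9 measured 1.83, 2.28, 4.86, 2.69 and 3.3 FPKM in MWA and 1.99, 2.65, 3.1, 4.24 and 3.13 FPKM in MWA+2DG. The group means of 2.99 ± 1.18 and 3.02 ± 0.824 FPKM (SD, n = 5 each) differed by a log2 fold change of 0.03 (95% interval -0.406 to 0.472, exact permutation p = 0.873). In replicates 1 and 2 and in replicates 3 to 5 the log2 differences were 0.116 and -0.023 for Mmp9 and -0.152 and -0.006 for Mmp8. MWA 1, the highest library for the S100 genes, was the lowest for Mmp9. The levels of Mmp9 separated narrowly by replicate set and not by treatment, at 1.83 to 2.65 FPKM in replicates 1 and 2 and 2.69 to 4.86 FPKM in replicates 3 to 5. The share of all genes that separate by replicate set was not computed. Of 5 metalloproteinase inhibitors 4 were tested and 0 passed, with P of 0.637 for Reck, 0.95 for Timp1 and 0.96 for Timp3 (limma, unadjusted).

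Cxcr2, the chemokine receptor of the list, was present in every library and overlapped between the groups. It measured 6.12, 9.21, 7.13, 5.57 and 6.04 FPKM in MWA and 6.9, 7.67, 6.24, 4.82 and 1.64 FPKM in MWA+2DG. The means were 6.81 ± 1.45 and 5.45 ± 2.37 FPKM (SD, n = 5 each), and the low value of MWA+2DG 5 carried the gap between them. The log2 fold change was -0.37 (95% interval -1 to 0.267, exact permutation p = 0.341), and -0.07 without MWA+2DG 5 (exact permutation p = 0.683). In replicates 1 and 2 it was -0.044, and in replicates 3 to 5, which include MWA+2DG 5, it was -0.585. Its ligands were scarce: the 6 CXCR2 ligands Cxcl1, Cxcl2, Cxcl3, Cxcl5, Ppbp and Cxcl15 summed to 0.721 to 2.01 FPKM in MWA and 0.96 to 1.81 FPKM in MWA+2DG, and none reached the level for testing. Cxcr1, the related receptor, did not exceed 0.36 FPKM. Among granulopoietic and recruiting cytokines, 0 of 3 tested genes passed (limma unadjusted P of 0.246 for Il1b, 0.858 for Tnf and 0.88 for Il1a), and Il17a was listed at 0 in all 10 libraries.

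Library by library, the 10 genes together summed to 101 FPKM in MWA 1 and to 24.1, 27.5, 27.8 and 24.9 FPKM in MWA 2 to 5. In MWA+2DG 1 to 5 they summed to 13.5, 12.4, 16.5, 16.1 and 27.5 FPKM. The sums differed in make-up. S100a8 and S100a9 held 68.3% of the sum in MWA 1 and 44.3% to 57.8% in MWA 2 to 5. In MWA+2DG 1 to 5 they held 26.9%, 10.6%, 30.5%, 29.2% and 54.2%. MWA 1 stood above all other libraries, and MWA+2DG 5 was the only library of its group within the range of MWA 2 to 5. The 10 genes made up 0.03% of all FPKM in MWA 1 and between 0.00379% and 0.00879% elsewhere. Of the 10 genes, 6 were at their highest in MWA 1, as were 9.31% of all 32378 genes above 0. Ngp, Camp and Ltf together reached 20.3 FPKM in MWA 1 and between 0 and 1.33 FPKM in the other 9 libraries. In direction, 9 of the 10 log2 differences were negative (all genes above 0, 48.3%), with a median of -0.415 against 0.00133 for all genes above 0. Without MWA 1 that median was -0.183, and in replicates 3 to 5 alone it was -0.0746.

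**Figure D3:**
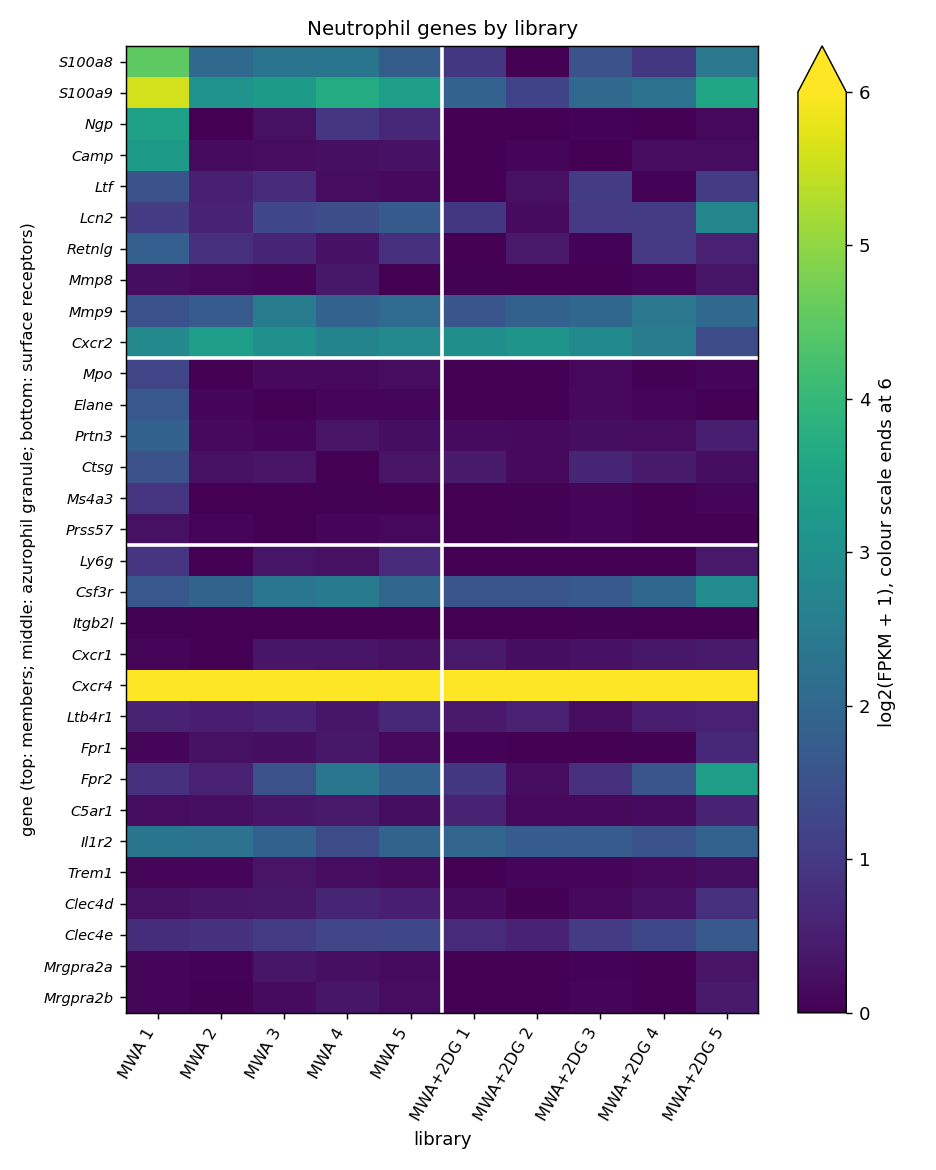
Level on the log2(FPKM + 1) scale (colour, scale ending at 6) of the 10 members, 6 azurophil granule genes and 15 surface receptors (rows) in the 10 libraries (columns), with a white line between the groups. MWA 1 is the brightest column for S100a8, S100a9, Ngp, Camp and all 6 azurophil genes, and Cxcr4, at 68.9 FPKM or more in every library, lies above the end of the scale.

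MWA 1 was also the highest library for the genes of the azurophil granules. All 6 were at their highest there: Mpo (myeloperoxidase) at 1.37 FPKM, Elane (neutrophil elastase) at 2.08, Prtn3 (proteinase 3) at 2.65, Ctsg (cathepsin G) at 1.82, Ms4a3 at 0.888 and Prss57 at 0.199 FPKM. The 6 summed to 9.01 FPKM in MWA 1, to between 0.427 and 0.71 FPKM in the other MWA libraries and to between 0.273 and 1.03 FPKM in MWA+2DG. None reached the level for testing. Ly6g, the surface marker of mature mouse neutrophils, measured 0.891, 0, 0.266, 0.197 and 0.633 FPKM in MWA and was listed at 0 in MWA+2DG 1 to 4, with 0.332 FPKM in MWA+2DG 5 (exact permutation p = 0.127). Csf3r, the receptor of the granulocyte growth factor G-CSF, lay between 2.1 and 4.65 FPKM in MWA and between 1.97 and 6.42 FPKM in MWA+2DG, and MWA 1 was the lowest library of its group.

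The remaining neutrophil lists held 1 gene past the rule. Of 17 other granule and cytosolic genes 9 were tested and 1 passed, Lyz2, the lysozyme gene that macrophages share. Lyz2 measured 1440, 1830, 1480, 1460 and 2240 FPKM in MWA and 1240, 1500, 1160, 1270 and 917 FPKM in MWA+2DG, with a log2 fold change of -0.47 ± 0.156 (SE; limma unadjusted P = 0.0122, adjusted p = 0.995). Adam8 (exact permutation p = 0.262) and Slpi (exact permutation p = 0.373) did not pass. Of 15 surface receptors 5 were tested and 0 passed, with unadjusted limma P of 0.28 for Il1r2, 0.386 for Cxcr4 and 0.606 for Csf3r. In MWA+2DG 5, 8 of the 15 were at their highest, and the share of all genes at their highest there was not computed. The transcription factors Gfi1, Spi1 (PU.1) and Cebpa did not pass (unadjusted limma P of 0.201, 0.48 and 0.602), and 0 of 4 tested passed. Cebpe, which drives the specific granule program, reached 0.223 FPKM in MWA 1 and no more than 0.0768 FPKM elsewhere. The receptors of the released proteins (0 of 6; exact permutation p of 0.175 for Cd36, 0.349 for Bsg and 0.556 for Ager) and the suppressor myeloid genes (0 of 3; exact permutation p of 0.31 for Wfdc17, 0.524 for Cd84 and 0.635 for Arg2) gave no call.

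Markers of other cells moved with the same 2 libraries in part. Of 5 T cell genes 4 were at their highest in MWA 1 (all genes above 0, 9.31%). The T cell list summed to 403 FPKM there and to between 249 and 373 FPKM in the other libraries. Of 8 eosinophil genes 6 were at their highest in MWA 1, and the list summed to 7.78 FPKM there, between 3.09 and 5.16 FPKM in the other MWA libraries and between 2.24 and 3.82 FPKM in MWA+2DG. The defining eosinophil gene Epx reached 0.14 FPKM at most, and 1 of 2 tested genes, Ear2, was lower in MWA+2DG (log2 fold change -0.57, limma unadjusted P = 0.00481). Red blood cell genes summed to 22.6 FPKM in MWA 1, the lowest of the MWA libraries (the others 51.2 to 65.6), and to 16.7 to 85.3 FPKM in MWA+2DG. In MWA+2DG 5, 5 of 7 monocyte genes, 5 of 8 epithelial genes and 5 of 5 adipocyte genes were at their highest, beside Lcn2. The share of all genes at their highest in MWA+2DG 5 was not computed, so these counts cannot be called particular to the lists. Of the monocyte genes 5 were tested and 1, Csf1r, was lower in MWA+2DG (log2 fold change -0.30, limma unadjusted P = 0.0482). The part of these cells in the S100a8, S100a9 and Lcn2 values was not tested.

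Across the 10 libraries the members fell into unequal pairs. Of 45 pairs on the log2(FPKM + 1) scale, 8 had a Benjamini-Hochberg adjusted permutation p below 0.05 by Pearson's r and 4 by Spearman's rho. The permutations exchanged all 10 libraries across both groups and both replicate sets. A difference between groups or sets that 2 genes share can therefore also give a small p, and correlations within a group were not computed. S100a8 and S100a9 gave r = 0.97 (permutation p = 8e-05, adjusted 0.0036) and rho = 0.92 (permutation p = 0.00054, adjusted 0.0137), with r = 0.9 without the 2 libraries farthest from the median, 0.94 without MWA 1 and 0.85 in replicates 3 to 5 (n = 6). Ngp and Camp gave r = 0.97 (permutation p = 0.00079, adjusted 0.0118) and rho = 0.84 (permutation p = 0.00412, adjusted 0.0464), and r was 0.68 without the 2 farthest libraries and 0.65 in replicates 3 to 5 (n = 6). Without MWA 1 alone the r of that pair was 0.67. Other pairs past the Pearson limit also changed without MWA 1. The r of S100a8 went from 0.83 to 0.5 with Ngp and from 0.8 to 0.53 with Camp. That of S100a9 went from 0.84 to 0.66 with Ngp and from 0.79 to 0.78 with Camp. For Camp and Retnlg it went from 0.82 to 0.71.

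Cxcr2 did not follow the S100 genes, with r = -0.18 for S100a8 (permutation p = 0.538, adjusted 0.716; rho = -0.31, permutation p = 0.386, adjusted 0.61) and -0.24 without the 2 farthest libraries. In replicates 3 to 5 the r of that pair was -0.25 (n = 6). Lcn2 and Cxcr2 ran in opposite directions, with r = -0.87 (permutation p = 0.00503, adjusted 0.0377) and rho = -0.76 (permutation p = 0.0148, adjusted 0.0951). That r was -0.53 without the 2 farthest libraries, one of them MWA+2DG 5, and -0.86 in replicates 3 to 5 (n = 6), which include MWA+2DG 5. The replicates 1 and 2 hold 4 libraries, too few for a value of their own.

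**Figure D4:**
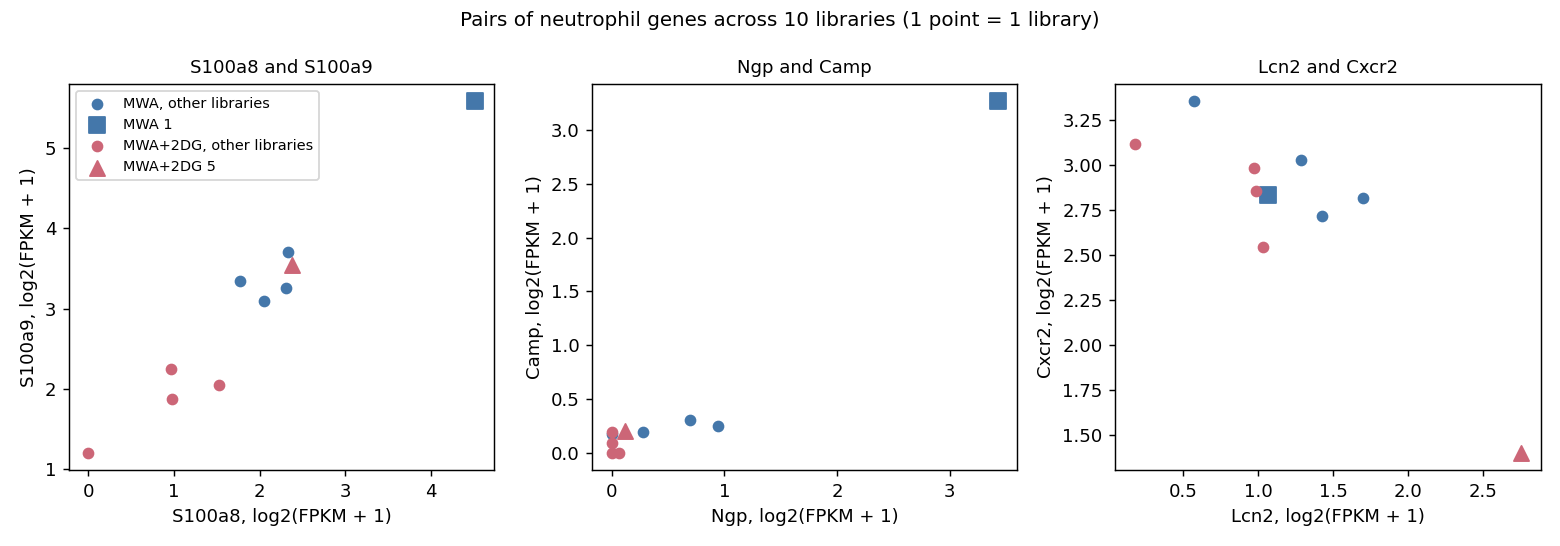
Levels of 3 pairs of genes on log2(FPKM + 1) scales, 1 point per library, MWA in blue (MWA 1 as a square) and MWA+2DG in red (MWA+2DG 5 as a triangle). S100a8 and S100a9 rise together over the whole range (r = 0.97), the relation of Ngp and Camp leans on MWA 1, and that of Lcn2 and Cxcr2 leans on MWA+2DG 5.

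The tested genes whose levels over the 10 libraries were most like those of the 6 tested members, by mean Pearson r, were Hist2h2ac (0.41), Dusp12, Gemin6, Gm16378, AI662270 and Gm13710 (0.39 each), Rsl1 (0.38), and Gm14328, ENSMUSG00000118537 and Ighv1-26 (0.37 each). The mean r of the members with each other was 0.09. Dusp12 followed S100a8 (r = 0.92) and AI662270 followed Ngp (r = 0.92), and both were at their highest in MWA 1.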

How the data were processed

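Bulk RNA-seq of poly(A) RNA from TDLNs (5 MWA and 5 MWA+2DG libraries) was analysed from the FPKM that the authors deposited, 1 table per library with 33643 Ensembl gene identifiers. The submitters' processing notes name cutadapt 1.9, UMI-tools, HISAT2 2.0.4, StringTie 1.3.4d and the mouse build mm9, and the study's methods name fastp, HISAT2, StringTie and ballgown. Neither the annotation release nor the use of molecular identifiers in the quantification is given in the sources used here. FPKM keep no read counts, so no counting error can be given.

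Symbols were found for 33541 identifiers, and 57 symbols shared by several identifiers were summed, leaving 33585 genes. The 13334 genes averaging 1 FPKM or more across all 10 libraries entered a limma fit (version 3.58.1, R 4.3.3) of log2(FPKM + 1) with no covariate and Benjamini-Hochberg adjustment over all of them. Fold changes are on that scale, which understates the change of low genes. Single genes were tested by two-sided exact permutation of the group labels (scipy 1.17.1, Python 3.11.15), and pairs of members by 100000 permutations. In simulated data, of 200 genes given a log2 change of 1 among 13334, 181 passed an adjusted p of 0.05, with 4 false calls. The simulated noise was normal, with each gene's own spread, and independent between genes and libraries. It held no replicate sets or outlying libraries, so these counts do not measure the power of the fit in the real data.

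The members, the gene lists and the tests were chosen with earlier results of these data known. Named were all members, in each pathway list up to 3 genes of smallest P with a mean of at least 1 FPKM in either group, Ly6g, Csf3r and the 10 genes most like the members. The azurophil genes, Cxcr1, Cebpe, Il17a and single cell type markers were named after their values were seen. Group labels came from the sample titles, and the PBS treatment of the MWA group, the age and the doses from the study's methods. The labels do not say that each library is a separate mouse, so p-values measure the spread between these libraries. No 2 libraries shared more than a fraction of 0.000178 of equal values above 0. Alternatives were another pseudocount, filters, 3 scalings, limma-trend, the Wilcoxon test, a replicate block, a replicate set term and leaving out libraries.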

Additional observations from a re-analysis of the deposited data

Results flagged for a closer look

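Among 64 groups of 5 values (32 genes in the MWA and MWA+2DG groups), 8 held a library whose gap to its nearest neighbour exceeded 0.71 of the group's range, Dixon's 95% limit for 5 values. The gaps were taken on the log2(FPKM + 1) scale, while the values given here are FPKM. Chance alone gives such a gap in about 1 of 20 groups of normal values. Groups with several values at 0, as for Ly6g, are not normal. In MWA 1, S100a8 was at 21.9 FPKM (next library 4.05), S100a9 at 46.9 FPKM (next 12), Ngp at 9.76 FPKM (next 0.922) and Camp at 8.64 FPKM (next 0.232), which are 4 genes of the same library. In MWA+2DG 5, Timp1 was at 9.52 FPKM (next 2.91), Mmp8 at 0.269 FPKM (next 0.0607) and Ly6g at 0.332 FPKM, where the other 4 libraries of the group were listed at 0. Gfi1 was low in MWA+2DG 1, at 1.81 FPKM (next 2.14).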

How the results depend on the processing

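Of 332 values recomputed under an alternative, 286 kept their direction and their side of the threshold, stayed within 1.5 times (counts) or, for values without a test, moved by less than 1 SD between libraries. The last include Ltf, which turned from -0.135 to 0.09 without MWA 1 and to 0.369 in replicates 3 to 5 alone. Part of the 332 values could not move. The fold changes of the members are the same by construction without a filter, with a filter of 5 FPKM, with a replicate block and with a replicate set term. Members that a filter left without a P were compared by fold change only. The 286 are therefore not a measure of robustness. The 2 members lower by the rule were 1 with a filter of 5 FPKM (which left 2 members), 0 with the Wilcoxon test, 0 in replicates 3 to 5 alone and 1 to 3 with single libraries left out (1 without MWA+2DG 2, 3 without MWA 2, counting Ngp, which entered the test only through MWA 1). Members lower by the rule numbered 3, again counting Ngp, with a pseudocount of 0.1 and after rescaling each library to 1000000. Over all genes the rule gave 127 higher and 249 lower, against 69 and 161 with a filter of 5 FPKM, 328 and 159 after rescaling each library to 1000000, and 67 and 143 with the Wilcoxon test. With single libraries left out it gave 82 to 222 higher (82 without MWA 5, 83 without MWA+2DG 1, 199 without MWA 1 and 222 without MWA+2DG 5) and 176 to 315 lower, and 1 gene passed an adjusted p of 0.05 without MWA 2. Members whose groups did not overlap numbered 0 to 2 with single libraries left out (Ngp without MWA 2, where 160 of 13331 tested genes did not overlap, and S100a8 and S100a9 without MWA+2DG 5) and 2 without both MWA 1 and MWA+2DG 5, and all such genes 107, 190 without a filter and 145 to 276 with single libraries left out. The median log2 difference of the members, -0.415, was -0.94 with a pseudocount of 0.1, -0.515 to -0.183 with single libraries left out (-0.183 without MWA 1) and -0.0746 in replicates 3 to 5 alone. Lcn2 and Mmp9, close to 0, changed sign: Lcn2 ranged from -0.455 to 0.226 and Mmp9 from -0.095 to 0.183 with libraries left out, and they were 0.119 and -0.023 in replicates 3 to 5 alone. The cause of these changes was not tested. Same-numbered libraries correlated at 0.03 to 0.5, not above 0.1 in every pair, and most libraries correlated best with another number, so the numbers were not taken to pair libraries one by one, although replicates 1 and 2 and replicates 3 to 5 form sets across the groups. With a replicate block, 164 genes were higher and 285 lower, with S100a8 and S100a9 again lower (unadjusted limma P of 0.0345 and 0.0149), and a replicate set term gave 155 and 297 with 2 members. Without counts, the precision of values near 0, such as those of Ngp, Camp and Mmp8, is unknown.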

Other observations

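Among the genes most like the members, Ighv1-26, an immunoglobulin heavy chain variable gene, measured 16.2, 5.7, 16.1, 26.6 and 19 FPKM in MWA and 4.54, 6.32, 5.11, 5.99 and 6.45 FPKM in MWA+2DG. It was lower in MWA+2DG by a log2 fold change of -1.28 (limma unadjusted P = 0.0016). The groups overlapped only in MWA 2, and the gene shares near-identical sequence with other variable genes, so its level is uncertain. Gemin6, of the complex that assembles spliceosomal particles, was lower in MWA+2DG by a log2 fold change of -0.23 (limma unadjusted P = 0.00711), under the fold limit of the rule.

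Hp, the gene of haptoglobin, which neutrophils and the liver both make, measured 27.3 FPKM in MWA+2DG 5 and between 1.17 and 11.2 FPKM in the other libraries. Slpi, an inhibitor of neutrophil elastase, varied from 69 to 840 FPKM, with 69.3 and 84.6 FPKM in MWA 1 and 2 and 381 to 840 FPKM in MWA 3 to 5. In MWA+2DG the replicate sets overlapped, with 218 and 69 FPKM in replicates 1 and 2 and 121, 369 and 128 FPKM in replicates 3 to 5.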
